A study of Homo sapiens with 6 samples.

Results

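The prostaglandin E2 pathway was followed in RNA sequencing of A431 cells with and without Desmoglein-2 through 10 genes for its synthesis, its breakdown and its receptors. All 10 were found by symbol among the 21462 genes of the deposited count table. They are the receptors PTGER4 and PTGER2, the cyclooxygenases PTGS1 and PTGS2, the prostaglandin E synthases PTGES, PTGES2 and PTGES3, and the uptake and breakdown genes SLCO2A1, HPGD and PTGR1. The set was chosen by a measured value, the strong rise of PTGER4 in the comparison described here, so the difference in PTGER4 is given as a description with no test.

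A431 is a line of human epidermoid carcinoma cells with keratinocyte features. The control cells (A431CT, genotype labelled WT, 3 libraries) were compared with A431 cells in which DSG2 had been knocked out by CRISPR/Cas9 editing (Dsg2KO, 3 libraries), and no treatment is labelled for either. DSG2 encodes Desmoglein-2, a cadherin of the desmosome. The libraries of a condition are called biological replicates by the study. Whether the edited cells are 1 clone or a pool is not given in the sources used here, so a difference between the cell lines that did not come from the loss of DSG2 cannot be told apart from one that did.

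Prostaglandins are made on demand from arachidonic acid, which phospholipases free from membranes. A cyclooxygenase, either the constitutive PTGS1 (COX-1) or the inducible PTGS2 (COX-2), turns it into PGH2, and a terminal synthase turns PGH2 into PGE2. PGE2 leaves the cell and binds receptors on the same or neighbouring cells. The receptors EP2 and EP4, encoded by PTGER2 and PTGER4, couple to Gs and raise cyclic AMP. The signal ends when the transporter encoded by SLCO2A1 takes up PGE2 and the dehydrogenase encoded by HPGD oxidises it. In the epidermis, PGE2 is best known for its part in inflammation and wound repair.

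The libraries held between 12845719 and 16255692 counts, and 12857 genes passed a filter on low counts and were tested. DSG2 itself was at 323 ± 6.12 CPM (counts relative to the scaled library total, SD, n = 3) in A431CT cells and at 51.9 ± 2.88 (SD, n = 3) in Dsg2KO cells, lower in 3 of 3 libraries. Among the keratinocyte markers, 11 of 12 were tested, with KRT5 between 8191 and 9596 counts per library, but KRT14 had at most 2 counts in any library. The keratinocyte markers summed to between 11687 and 12442 CPM in A431CT cells and between 12338 and 12721 in the Dsg2KO libraries, and the fibroblast markers to between 2.09 and 3.39 CPM against 1.98 to 4.43. Most of the keratinocyte sum was EGFR, at 8445 ± 344 CPM for A431CT against 9129 ± 215 CPM for Dsg2KO (SD, n = 3). By edgeR's adjusted p-value EGFR, CDH1 and DSP were higher and KRT5, KRT6A, PERP and SFN lower in Dsg2KO cells. Together that is 7 of the 11 tested (63.6%, against 29.6% of all tested genes). KRT6A was past the fold change minimum too, at 8.43 against 4.12 CPM (log2 difference -1.03). Among the leukocyte markers PTPRC had between 2 and 8 counts and CD3E and MS4A1 had none, whereas CD68, a lysosomal protein that other cells also make, had between 2370 and 3258. CD68 was lower in Dsg2KO cells (log2 difference -0.62, edgeR adjusted p = 9.24e-08). LYZ had between 24 and 29 counts in A431CT cells and between 37 and 66 in Dsg2KO cells (log2 difference 0.66, edgeR adjusted p = 0.0765). ITGAM had between 11 and 31 counts per library and CD14 between 2 and 10. CD68 made up nearly all of the leukocyte sum, which was between 240.6 and 244.5 CPM in A431CT cells and between 153.8 and 166.8 in the Dsg2KO libraries. The endothelial markers summed to between 8.52 and 11.5 CPM against 15.1 to 15.7 for Dsg2KO, with CDH5 at 49 to 71 counts against 119 to 134. Of the 3 endothelial markers tested, 2 were higher past the fold change minimum too, against 2.99% of all tested genes. These were CDH5 and PECAM1, with log2 differences of 0.76 and 0.54 (edgeR adjusted p = 0.0035 and 0.0466). VWF did not pass, with a log2 difference of 0.22 (edgeR adjusted p = 0.656) and overlapping libraries. KDR and TEK had at most 3 counts in any library. The part of these markers in the results was not tested.

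Of the 10 genes, 6 had enough reads to be tested and 4 did not. Each of the 6 had at least 15 counts in every library. The study called a gene changed when its adjusted p-value was under 0.05 and its log2 fold change was at least 0.5 in size. Of the 5 tested genes other than PTGER4, 2 passed these thresholds, PTGES as higher and PTGR1 as lower in Dsg2KO cells. Over all tested genes 6.03% passed, 2.99% as higher and 3.03% as lower. PTGER4 is left out of this count, since its rise in the same libraries chose the set, and nothing is read from the count. PTGS1, PTGES2 and PTGES3 did not pass. The plot of levels by library shows all 10 genes.

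**Figure D1:**
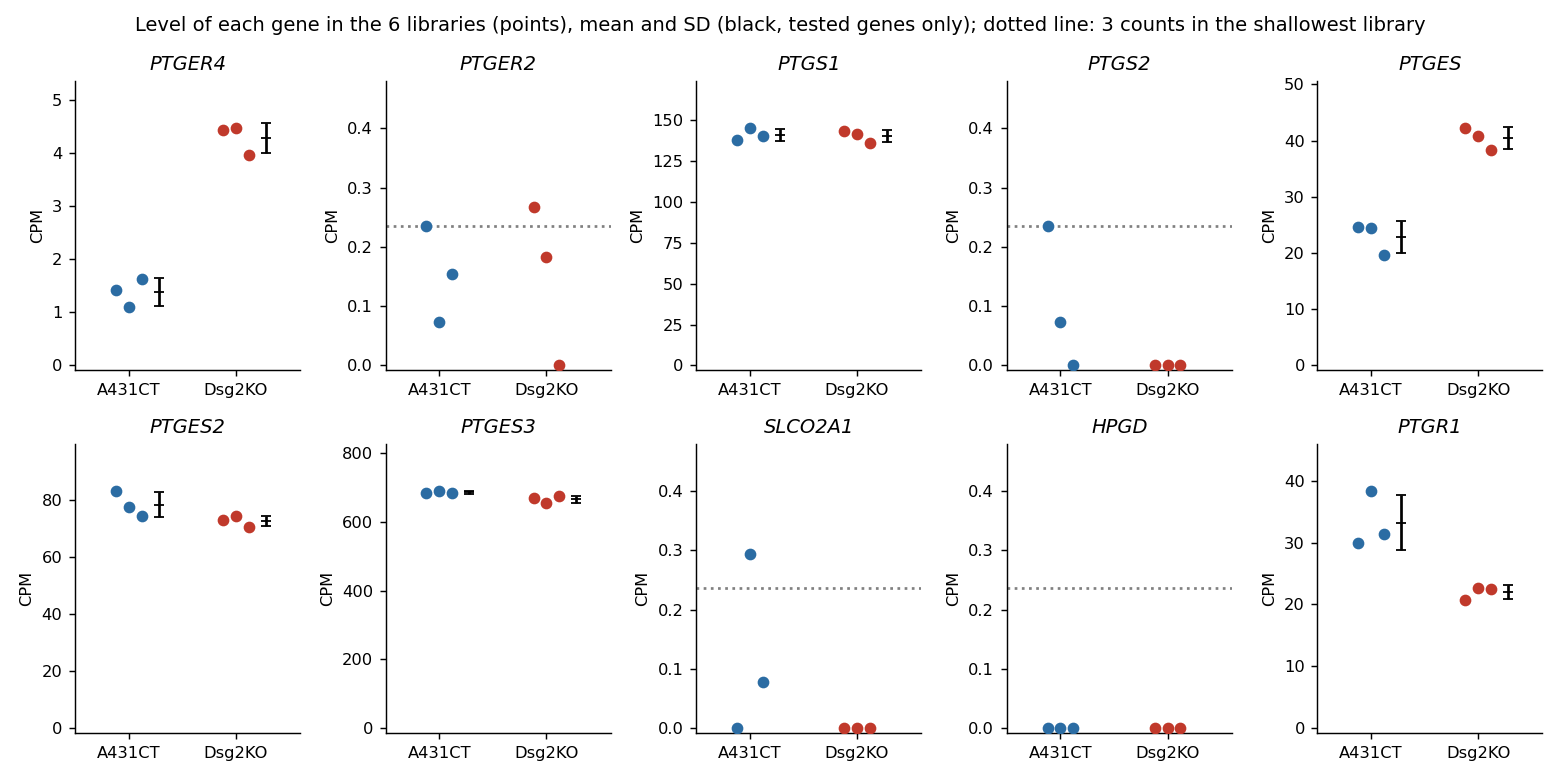
Level of each of the 10 genes in CPM (vertical axes, each starting at 0 and scaled to its gene) in the 3 A431CT (blue) and 3 Dsg2KO (red) libraries, 1 point per library, with the mean and SD in black for the 6 tested genes. The Dsg2KO points lie above all A431CT points for PTGER4 and PTGES and below them for PTGR1 and, by a small margin, for PTGES3. PTGER2, PTGS2, SLCO2A1 and HPGD lie near or under the dotted line, which marks 3 counts in the shallowest library (0.236 CPM).

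PTGER4, on chromosome 5 of GRCh38 from 40679915 to 40693735, was counted 18, 15 and 21 times in the A431CT libraries and 66, 73 and 64 times in the Dsg2KO libraries. This corresponds to 1.41, 1.10 and 1.63 CPM against 4.43, 4.46 and 3.95 CPM. Every Dsg2KO library lay above every A431CT library, with no overlap between the conditions. The means were 1.38 ± 0.263 and 4.28 ± 0.284 CPM (SD, n = 3), a 3.10-fold higher level in Dsg2KO cells. The log2 fold change was 1.63 (standard error 0.25), above that of 99.7% of the tested genes. With each of the 6 libraries left out in turn it lay between 1.49 and 1.76. The rise of PTGER4 in these same libraries chose the set. Its rank, lack of overlap and steadiness follow in part from that choice and lend the rise no support. PTGER4 remained a gene of low abundance in both conditions. The annotation holds 2 pseudogenes named after PTGER4, neither of them a row of the count table, which may share reads with it. TTC33 overlaps PTGER4 on the opposite strand without sharing exons, and it differed by -0.01 on the log2 scale (edgeR adjusted p = 0.957).

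PTGER2, the gene for EP2, was counted 3, 1 and 2 times in A431CT cells and 4, 3 and 0 times in Dsg2KO cells. These counts were too low to test, and a difference in PTGER2 was not detectable at this depth. In these libraries 3 counts correspond to between 0.183 and 0.236 CPM, which covers counting error only. None of the other 7 prostanoid receptor genes, among them PTGER1 and PTGER3 for the remaining PGE2 receptors, could be tested either. The receptor with the most reads among them was PTGDR2, a receptor for prostaglandin D2, with between 3 and 7 counts in A431CT cells and between 6 and 15 in Dsg2KO cells. PTGER1, the next, had at most 3 counts in any library, and PTGDR, PTGIR and TBXA2R had none. In all 6 libraries PTGER4 thus had more reads than any other prostanoid receptor gene on the list.

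For the genes of the set that were higher in Dsg2KO cells, the 250 bases upstream of the RefSeq start are shown, PTGER4 (chr5:40679665-40679914, plus strand, GRCh38.p14) and PTGES (chr9:129753043-129753292, minus strand, GRCh38.p14), 5′ to 3′. No annotated exon lies in either window. Capitals mark the match to the NF-κB motif in PTGER4 and to the EGR motif in PTGES.
PTGER4: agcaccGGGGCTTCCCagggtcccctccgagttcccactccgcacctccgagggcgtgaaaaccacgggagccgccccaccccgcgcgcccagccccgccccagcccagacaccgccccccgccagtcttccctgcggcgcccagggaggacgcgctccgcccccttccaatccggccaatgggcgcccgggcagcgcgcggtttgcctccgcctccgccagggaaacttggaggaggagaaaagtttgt
PTGES: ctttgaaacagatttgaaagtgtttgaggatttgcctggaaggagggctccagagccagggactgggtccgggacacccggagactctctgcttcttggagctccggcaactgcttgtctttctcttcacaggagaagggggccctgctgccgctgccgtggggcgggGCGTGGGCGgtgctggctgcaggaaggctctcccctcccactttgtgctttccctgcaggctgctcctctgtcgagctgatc
The motifs were searched on both strands in the same 250 bases of 35116 RefSeq promoters. The NF-κB motif of PTGER4, 244 to 235 bases before the start, had a match in 9.96% of all promoters. PTGES had no match to it, while PTGER2, PTGES3 and HPGD had one. PTGES3 was not called higher, and PTGER2 and HPGD were too low to test. The EGR motif GCGNGGGCG of PTGES, 82 to 74 bases before the start, had a match in 8.41% of all promoters, and it overlaps 1 of 2 GC boxes (GGGCGG). PTGER2 and PTGES2 also had a match to the EGR motif. PTGER4 had 4 GC boxes, and 42.6% of all promoters had at least 1. Neither window matched TGACGTCA, the cyclic AMP response element (1.65% of all promoters), its shorter form TGACG (21.2%), TGACTCA or TGAGTCA for AP-1 (4.2%), TATAAA (10.7%), CACGTG (6.34%) or TGACNNNGC, the antioxidant response element (10.9%). Bases were 72.8% G or C in the window of PTGER4 and 61.2% in that of PTGES, where the median promoter had 58%. The matches are descriptions of sequence and say nothing of binding in these cells.

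Of the cyclooxygenases, PTGS1 carried almost all reads. PTGS1, on chromosome 9 from 122370530 to 122395703, was at 138, 145 and 140 CPM in A431CT cells and at 143, 141 and 136 CPM in Dsg2KO cells. The conditions overlapped, and the means were 141 ± 3.63 and 140 ± 3.65 CPM (SD, n = 3). The log2 fold change was -0.01 with a 95% interval from -0.10 to 0.08 (adjusted p = 0.911, edgeR's quasi-likelihood test). A change of the size of the study's fold change minimum lies outside this interval. The sign of this small value turned with other settings. PTGS2 was counted 3, 1 and 0 times in A431CT cells and was not counted in any Dsg2KO library, so both conditions were at or under the floor of 3 counts and no fold is given. A PTGS2 level of up to 0.183 to 0.201 CPM in the Dsg2KO libraries is allowed by a count of 0.

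The prostaglandin E synthases behaved unequally. PTGES, the inducible microsomal synthase that is often paired with PTGS2, lies on chromosome 9 from 129738331 to 129753042. PTGES was at 24.6, 24.5 and 19.6 CPM in the A431CT libraries and at 42.2, 40.8 and 38.4 CPM in the Dsg2KO libraries. The conditions did not overlap, and the gap between them was wider than the range within either. Means of 22.9 ± 2.87 and 40.4 ± 1.93 CPM (SD, n = 3) gave a 1.77-fold higher level in Dsg2KO cells. On the log2 scale PTGES changed by 0.82 ± 0.09 (SE), with an adjusted p = 5.60e-06 from edgeR, and all 3 Dsg2KO libraries were higher. Over the alternatives it stayed between 0.72 and 0.87, with adjusted p-values from 3.56e-18 to 1.06e-04 (edgeR and DESeq2).

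PTGES2, another membrane-associated synthase, lies near PTGES on chromosome 9, from 128120693 to 128128462. It was at 83.2, 77.6 and 74.4 CPM in A431CT cells and at 73.0, 74.5 and 70.7 CPM in Dsg2KO cells. The highest Dsg2KO library lay above the lowest A431CT library by a small margin, so the conditions overlapped. The log2 fold change was -0.11 with a 95% interval from -0.22 to 0.004 (adjusted p = 0.141, edgeR). PTGES3, on chromosome 12 from 56663341 to 56688408, encodes the cytosolic synthase better known as p23, a co-chaperone of HSP90. PTGES3 was at 684, 689 and 682 CPM in A431CT cells and at 669, 654 and 674 CPM in Dsg2KO cells. All Dsg2KO libraries were lower, yet by a small amount, with a log2 fold change of -0.04 and a 95% interval from -0.11 to 0.02 (adjusted p = 0.348, edgeR). PTGER4 aside, libraries did not overlap for 3 of the 5 tested genes, PTGES, PTGES3 and PTGR1, against 42.6% of all tested genes. The annotation holds 5 pseudogenes named after PTGES3, which may share reads with it.

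The ratio of reads on PTGES to reads on PTGES2 within a library does not depend on how libraries were scaled. There were 0.296, 0.316 and 0.264 PTGES reads per PTGES2 read in the A431CT libraries and 0.578, 0.548 and 0.542 in the Dsg2KO libraries. Relative to PTGS1, there were 0.179, 0.169 and 0.140 PTGES reads per PTGS1 read in A431CT cells and, in the Dsg2KO libraries, 0.295, 0.288 and 0.282. Both ratios were higher in every Dsg2KO library than in any A431CT library.

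Levels of different genes were compared per length, as CPM divided by the annotated exon length in kb. In A431CT cells PTGES3 had the highest level (202 ± 1.00, SD, n = 3), followed by PTGS1 (24.4 ± 0.627), PTGES2 (12.9 ± 0.730), PTGES (12.1 ± 1.52), PTGR1 (8.81 ± 1.19) and PTGER4 (0.390 ± 0.0741). The libraries of PTGES2 and PTGES overlapped on this scale, between 12.2 and 13.7 and between 10.4 and 13.0, whereas those of the other neighbours in this order did not. In Dsg2KO cells the order was PTGES3 (196 ± 3.04, SD, n = 3), PTGS1 (24.2 ± 0.630), PTGES (21.4 ± 1.02), PTGES2 (11.95 ± 0.308), PTGR1 (5.82 ± 0.297) and PTGER4 (1.21 ± 0.0800). There PTGES was above PTGES2 in every library and below PTGS1. By reads PTGES stayed below PTGES2 in every library. The order per length thus rests on the exon lengths used, 1891 bases for PTGES and 6084 for PTGES2. The exon length of a gene sums all its annotated transcripts, so levels per length depend on which of them the cells use.

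**Figure D2:**
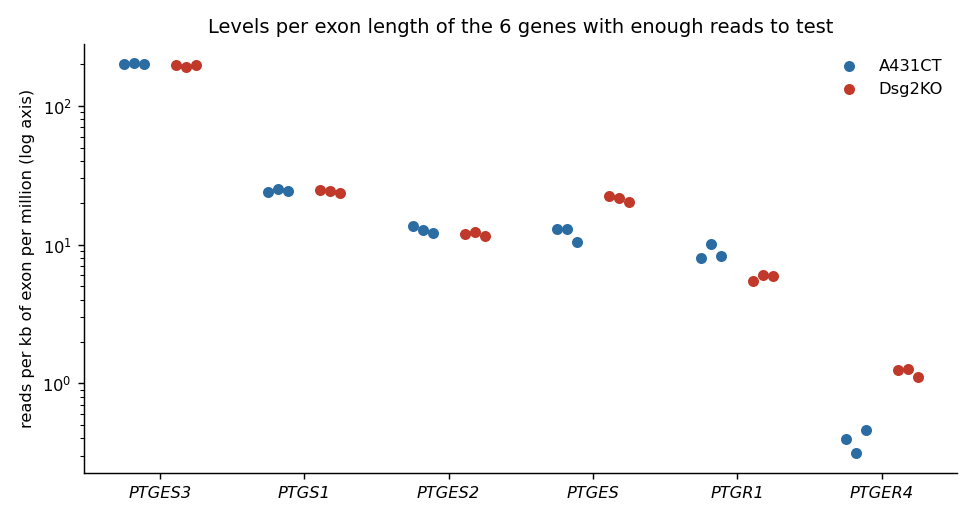
Level per exon length (vertical log axis, CPM per kb of annotated exon) of the 6 tested genes, ordered by their A431CT mean, with 1 point per library (A431CT blue, Dsg2KO red). On this scale PTGES moved from the level of PTGES2 in A431CT cells (12.1 against 12.9) to above it in Dsg2KO cells (21.4 against 11.95). PTGER4 stayed the lowest of the 6. By reads PTGES stayed below PTGES2 in every library, so the crossing of these 2 genes rests on the exon lengths used.

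Of the uptake and breakdown genes, PTGR1 alone could be tested. PTGR1 encodes a reductase that acts downstream of HPGD on oxidised prostaglandins and also on leukotriene B4. It lies on chromosome 9 from 111549722 to 111599893. PTGR1 was at 29.9, 38.3 and 31.4 CPM in A431CT cells and at 20.7, 22.7 and 22.5 CPM in Dsg2KO cells. The conditions did not overlap, and A431CT replicate 2 stood above the other A431CT libraries. Means of 33.2 ± 4.47 and 21.9 ± 1.12 CPM (SD, n = 3) put Dsg2KO cells at 0.661 of the A431CT level. On the log2 scale PTGR1 changed by -0.60 ± 0.09 (SE), with an adjusted p = 1.96e-04 from edgeR, and all 3 Dsg2KO libraries were lower. Without A431CT replicate 2 it was -0.48 (adjusted p = 5.28e-04, edgeR), short of the fold change minimum, and over the alternatives the adjusted p-value lay between 3.47e-08 and 0.00219 (edgeR and DESeq2). Exons of PTGR1 overlap those of ZNF483 on the opposite strand. ZNF483 was at 6.10 CPM in A431CT cells with a log2 fold change of 0.21 (adjusted p = 0.41, edgeR), and without a stated strand setting reads from the shared exons cannot be told apart.

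HPGD had no count in any of the 6 libraries, which allows a level of up to 0.183 to 0.236 CPM. SLCO2A1 was counted 0, 4 and 1 times in A431CT cells and was not counted in Dsg2KO cells, and it was too low to test. The gene for the enzyme that starts PGE2 breakdown and the gene for its uptake transporter were thus at or near 0 counts in both conditions. In such bulk RNA, fewer cells that express a gene and less RNA per cell cannot be told apart.

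Each tested gene was set beside the tested genes within 5 Mb of it, because genes on the same stretch of a chromosome can differ together between cell lines. For PTGES the 113 neighbours had a median of 0.02 on the log2 scale, and 2 of them were raised at least as much as PTGES. The 47 neighbours of PTGR1 had a median of 0.05, and 0 were lowered as much as PTGR1. The 36 neighbours of PTGER4 had a median of 0.16, with 27 of them higher in Dsg2KO cells and 1 raised at least as much as PTGER4. Within 2 Mb the median of its 12 neighbours was -0.0007, with 6 of them higher. PTGER4 was chosen for its rise, so its place beside its neighbours is a description only. For PTGS1, PTGES2 and PTGES3 the medians of the neighbours were 0.00, 0.02 and 0.00, with 44, 102 and 109 genes.

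**Figure D3:**
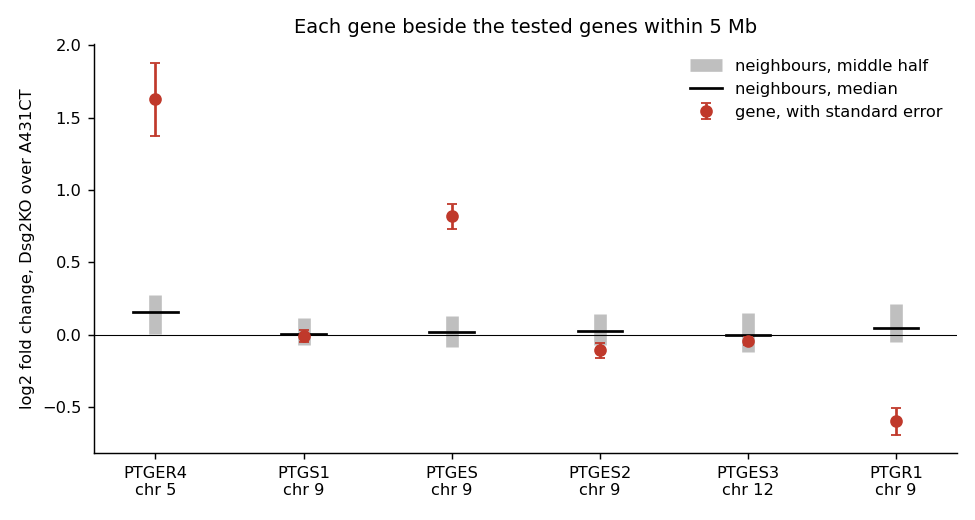
Log2 fold change of each tested gene (red, with its standard error) beside the tested genes within 5 Mb (black line, median; grey bar, from the lower to the upper quartile of the neighbours), Dsg2KO over A431CT on the vertical axis. PTGER4 (1.63), PTGES (0.82) and PTGR1 (-0.60) lie outside the grey bars of their neighbours, whose medians are 0.16, 0.02 and 0.05. PTGER4 was chosen for its rise, so its place outside the bar is a description only.

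The genes closest to PTGER4 in pattern were sought among all tested genes by the distance between log2 CPM values over the 6 libraries, after each gene was centred on its own mean. They were MAPK15, DUSP4, ADGRL1, ADAMTS7 and MAPT, at distances of 0.258, 0.308, 0.31, 0.375 and 0.395. Their log2 fold changes were 1.63, 1.54, 1.58, 1.70 and 1.85, close to the 1.63 of PTGER4 because the search favours genes with a like difference. DUSP4 encodes a phosphatase that inactivates MAP kinases, and MAPT encodes the microtubule-associated protein tau.

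**Figure D4:**
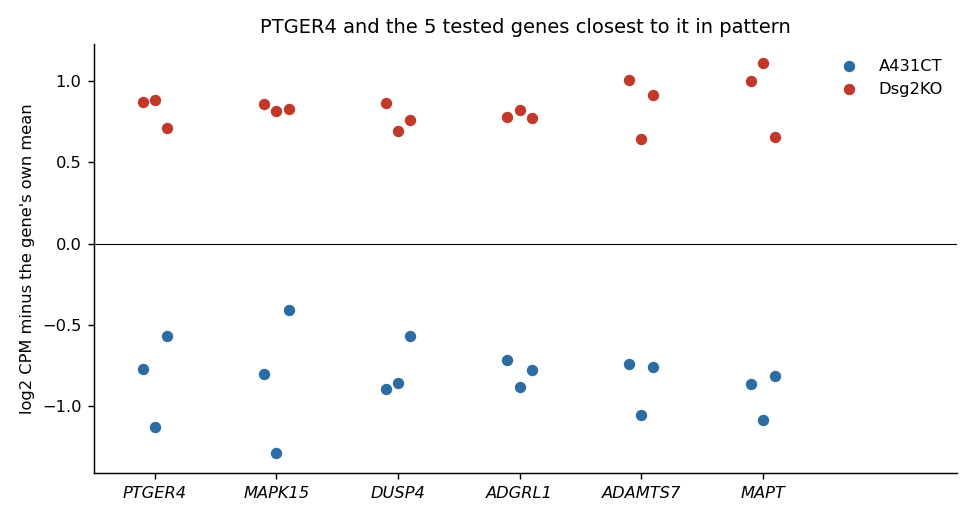
Log2 CPM minus the gene's own mean over the 6 libraries (vertical axis) for PTGER4 and the 5 tested genes closest to it, 1 point per library (A431CT blue, Dsg2KO red). In each of the 6 genes all Dsg2KO points lie above 0 and all A431CT points below it.

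The other genes of the pathway were read from 9 lists with 109 genes, of which 72 could be tested. Of these 72, 5 passed both thresholds (6.94%, against 6.03% of all tested genes), 3 higher and 2 lower in Dsg2KO cells. By the adjusted p-value alone 26 passed (36.1%, against 29.6% of all tested genes), 15 higher and 11 lower. The median log2 fold change of the 72 was 0.03, where that of all tested genes was -0.005.

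Among the genes that free arachidonic acid, 5 of 12 could be tested and MGLL passed both thresholds. By the adjusted p-value alone 3 of the 5 passed (60%, against 29.6% of all tested genes). Besides MGLL these were PLAAT3 at 0.49 and DAGLB at -0.21 on the log2 scale (adjusted p = 0.0322 and 0.0234, edgeR). MGLL encodes monoacylglycerol lipase. It was at 1.89, 3.46 and 2.40 CPM in A431CT cells and at 4.29, 3.79 and 4.57 CPM in Dsg2KO cells, without overlap but with a narrow gap. The change was 0.70 ± 0.25 (log2, SE, edgeR adjusted p = 0.0463), and it passed in 6 of 13 alternatives, with adjusted p-values from 0.0141 to 0.165 (edgeR and DESeq2). It lost the call with DESeq2, with a replicate block, and without any 1 of A431CT replicates 1 and 3 or Dsg2KO replicates 1, 2 and 3. The cytosolic phospholipase PLA2G4A, the classical source of arachidonic acid for cyclooxygenases, had at most 3 counts in any library. Of the genes that make and store arachidonic acid, 6 of 7 could be tested and 0 passed both thresholds. By the adjusted p-value alone 3 passed (50%, against 29.6% of all tested genes). ELOVL5 and MBOAT7 had the most reads, with log2 fold changes of 0.14 (adjusted p = 0.00608, edgeR) and -0.06 (adjusted p = 0.282, edgeR). FADS1, the desaturase that completes arachidonic acid, was named after its values were seen. It was at 124, 129 and 125 CPM in A431CT cells and at 86.8, 98.1 and 84.7 CPM in Dsg2KO cells, with a log2 fold change of -0.49 (adjusted p = 9.38e-06, edgeR), just short of the fold change minimum.

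Of the other prostanoid synthases, 3 of 7 could be tested. AKR1B1, an aldo-keto reductase that can make prostaglandin F2α, was at 67.1, 74.98 and 73.8 CPM in A431CT cells and at 52.9, 48.1 and 50.5 CPM in Dsg2KO cells. It was lower in 3 of 3 libraries, with a difference of -0.51 ± 0.06 (log2, SE, edgeR adjusted p = 1.52e-05). It passed in 9 of 13 alternatives, since its change lay at the fold change minimum (from -0.56 to -0.48), and it lost the call with scaling by total counts only and without A431CT replicate 2 or 3 or Dsg2KO replicate 2. The annotation holds 8 pseudogenes named after AKR1B1. Among the export and breakdown genes, 8 of 9 could be tested and AKR1C2 passed as lower. AKR1C2 had 51, 69 and 52 counts in A431CT cells and fewer, 19, 29 and 24, in Dsg2KO cells, with a difference of -1.53 ± 0.25 (log2, SE, edgeR adjusted p = 3.34e-04) that passed in 13 of 13 alternatives. AKR1C1 and AKR1C3, its paralogs, had at most 21 counts in any library. For both, every Dsg2KO library lay below every A431CT library. AKR1C1 went from 10, 21 and 11 counts (A431CT) to 9, 8 and 1 (Dsg2KO), a log2 difference of -1.47 (edgeR adjusted p = 0.0625). AKR1C3, too low to test, went from 10, 16 and 8 counts (A431CT) to 0, 2 and 4 (Dsg2KO). Reads may have been divided among these paralogs, which was not tested. CBR1, which reduces PGE2 to prostaglandin F2α, was named after its values were seen, with a log2 fold change of 0.40 (adjusted p = 5.50e-06, edgeR). CBR1 lies on chromosome 21, where its 44 tested neighbours had a median log2 fold change of 0.38.

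Of the genes that carry the signal of EP2 and EP4, 25 of 33 could be tested and RAPGEF3 passed both thresholds. RAPGEF3 encodes EPAC1, a cyclic AMP-activated exchange factor for the GTPase Rap1. It was at 4.01, 4.93 and 4.18 CPM in A431CT cells and at 7.24, 8.74 and 7.35 CPM in Dsg2KO cells, with no overlap. The change was 0.83 ± 0.17 (log2, SE, edgeR adjusted p = 0.00202), and it passed in 13 of 13 alternatives. By the adjusted p-value alone 6 of the 25 were higher and 4 lower. Together that is 40%, against 29.6% of all tested genes, 14.3% higher and 15.3% lower. Of the 9 adenylyl cyclase genes on the list, described after their values were seen, 5 could be tested. ADCY3, ADCY6, ADCY7 and ADCY9 were among the higher genes, with log2 fold changes of 0.15, 0.29, 0.49 and 0.29 (adjusted p = 0.0148, 0.00187, 2.83e-05 and 7.75e-04, edgeR). ADCY5, with between 5 and 18 counts per library, was at -1.09 and did not pass (adjusted p = 0.0935, edgeR), although each Dsg2KO library lay below each A431CT library. GNAS, which encodes the Gs α subunit and was also named after its values were seen, was among the lower ones at -0.44 (adjusted p = 1.04e-04, edgeR). PRKAR1A, GNAI1 and GNAI2 were lower too, at -0.20, -0.30 and -0.17 (adjusted p = 6.06e-04, 0.00247 and 0.00585, edgeR). GNAI3 was higher, at 0.14 (adjusted p = 0.0140, edgeR). The 56 tested neighbours of GNAS on chromosome 20 had a median of -0.19. For RAPGEF3, MGLL and AKR1C2 the medians of the neighbours within 5 Mb were 0.07, 0.04 and 0.03. For AKR1B1, FADS1 and ADCY7 they were -0.008, -0.02 and -0.01.

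Of the genes that cyclic AMP and CREB are known to induce, 9 of 12 could be tested, and SIK1 passed as higher. SIK1 had 22, 36 and 57 counts in A431CT cells and more, 74, 99 and 121, in Dsg2KO cells. The change was 1.07 ± 0.28 (log2, SE, edgeR adjusted p = 0.00847), it passed in 13 of 13 alternatives, and it lay between 0.81 and 1.49 over them. SIK1 lies on chromosome 21, where its 51 tested neighbours had a median of 0.41. A near-identical copy, SIK1B, was at 31.8 CPM in A431CT cells against 48.9 for Dsg2KO (log2 fold change 0.62), so the division of reads between the copies is uncertain. NR4A1, NR4A2, FOS, DUSP1, EGR1, PER1, AREG and PPARGC1A, the other 8 that could be tested, did not pass both thresholds. Among them NR4A1 had a log2 fold change of -0.56 (adjusted p = 0.0521, edgeR), with each Dsg2KO library below each A431CT library. PPARGC1A, a transcriptional coactivator named after its values were seen, passed by the adjusted p-value alone, at 142 CPM in A431CT cells and 103 CPM in Dsg2KO cells with a log2 difference of -0.46 (adjusted p = 8.83e-06, edgeR). Of the genes that govern the stability of PTGS2 mRNA, 7 of 8 could be tested and 0 passed both thresholds. By edgeR's adjusted p-value alone 3 passed (42.9%, against 29.6% of all tested genes). These were ZFP36L1 at 0.29, TIA1 at 0.24 and ELAVL1 at -0.12 on the log2 scale (adjusted p = 1.04e-04, 0.00633 and 0.0229, edgeR). KHSRP and HNRNPD had the most reads, with log2 fold changes of -0.05 (adjusted p = 0.299, edgeR) and 0.01 (adjusted p = 0.891, edgeR). In the lipoxygenase and epoxygenase branch 9 of 14 could be tested and 0 passed both thresholds. By the adjusted p-value alone 2 passed (22.2%, against 29.6% of all tested genes). These were LTA4H, the enzyme that makes leukotriene B4, at -0.26 (adjusted p = 0.00608, edgeR), and ALOX12, an arachidonate lipoxygenase, at 0.42 (adjusted p = 1.26e-04, edgeR).

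**Figure D5:**
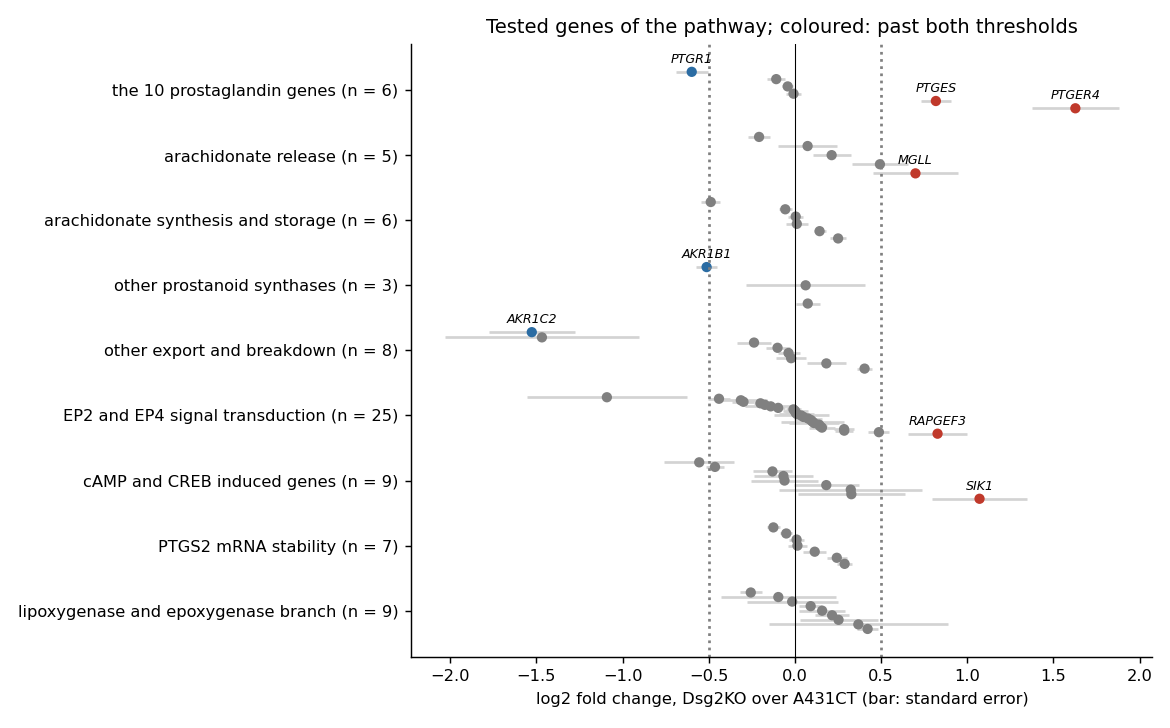
Log2 fold change of every tested gene of the pathway (horizontal axis, Dsg2KO over A431CT, grey bars for the standard error), by list, with the number tested in parentheses and dotted lines at the fold change minimum of 0.5 in either direction. Genes past both thresholds are named and coloured (higher red, lower blue), and most other genes lie between the dotted lines.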

How the data were processed

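Polyadenylated RNA of both A431 lines was sequenced in 3 libraries per line. Reads were filtered, mapped to GRCh38 and summarised by gene in CLC Genomics Workbench 23 by the authors. The deposited values are whole-number counts per gene symbol without normalization. The annotation, the strand setting and the handling of reads that map to several genes are not given in the sources used here.

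Counts were scaled with TMM factors and tested with edgeR 4.0.16 in R 4.3.3 (filterByExpr with a minimum count of 10 and a minimum total of 15, quasi-likelihood F test, no covariates, Benjamini-Hochberg over all 12857 genes tested). CPM values use the TMM factors, and log2 CPM values for the search for similar genes a prior count of 2. Depths were between 12845719 and 16255692 counts. Intervals and floors of 3 counts cover the spread between these libraries or counting error only. Positions and exon lengths came from GENCODE version 44, which placed 12245 of the tested genes by symbol and chromosome. Upstream sequences came from RefSeq (GRCh38.p14), where 9 of the 10 genes matched.

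The 10 genes, the pathway lists and the marker lists were chosen with earlier results of these data known. Named were all 10 genes, DSG2, the pathway genes past both thresholds or else the 2 with the most reads of a list, and the 5 genes nearest to PTGER4. Other genes were named after their values were seen: FADS1, CBR1, the ADCY and GNAI genes, GNAS, PRKAR1A, PPARGC1A, PLA2G4A, PLAAT3, DAGLB, ZFP36L1, TIA1, ELAVL1 and PTGDR2. So were the further receptors, early response genes, paralogs, overlapping genes and markers given beside a result. All 151 listed symbols were found, 1 through an older symbol. Replicates of a condition differed by more than counting error (chi-square between 2.64 and 4.12 per degree of freedom). The fit was tested on simulated data. Alternatives were other filters, size factors and fold change minimums, DESeq2 1.42.0, edgeR's likelihood ratio test, a replicate block and each library left out.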

Additional observations from a re-analysis of the deposited data

How the results depend on the processing

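The 13 alternative fits left PTGES, PTGES2 and PTGES3 with the same direction and on the same side of the thresholds, PTGR1 in 12 of 13. Without A431CT replicate 2 PTGR1 was at -0.48. PTGS1, at -0.0079, turned to 0.00104 without the low-count filter and to 0.0146 with total counts only, and lay between -0.0246 and 0.0130 with 1 library left out, above 0 without A431CT replicate 2 or Dsg2KO replicate 3. Its adjusted p-value was at least 0.774 in the 13 alternatives (edgeR and DESeq2). The fold change minimum sets the counts by construction. Of the 10 genes, counting PTGER4, whose rise chose the set, 3 passed (2 higher, 1 lower), and a minimum of 1 left 1 (1 higher, 0 lower). The gene left was PTGER4 itself, and nothing is read from these counts. Over all tested genes 6.03% passed. Of the pathway genes 5 passed (3 higher, 2 lower), against 26 (15 higher, 11 lower) without a minimum and 2 (1 higher, 1 lower) with a minimum of 1. Of all genes 775 passed (385 higher, 390 lower), against 3802 (1835 higher, 1967 lower) without a minimum and 250 (137 higher, 113 lower) with a minimum of 1.

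The pathway count was 8 without the low-count filter (4 lower) and 8 with the likelihood ratio test (5 lower). With total counts only it was split into 5 higher and 1 lower. The cause was not tested. With 1 library left out, from 4 to 7 pathway genes passed (2 to 4 higher, 1 to 4 lower), from 2 to 3 of the 10 genes (2 to 2 higher, 0 to 1 lower) and from 686 to 795 of all genes. Same-numbered libraries had correlations of their deviations between -0.0027 and 0.0539, so the numbers do not pair the libraries. A replicate block gave 769 genes and 3 of the 10.

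The median of the neighbours moved by more than the spread between replicates for PTGER4 (-0.000688 within 2 Mb), PTGS1 (0.0256 within 10 Mb), PTGS2 (0.22 within 2 Mb), PTGES2 (0.0532 within 2 Mb) and SLCO2A1 (0.115 within 2 Mb). Depth limits PTGER2, PTGS2, SLCO2A1 and HPGD, for which these libraries allow no statement on a difference.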
